A study of Mus musculus with 2 samples.

Results

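Integrins are adhesion receptors that cells use to hold on to one another and to the extracellular matrix. Each receptor is a pair of an α and a β subunit, and the pair decides which ligand is bound. The 10 subunits described here are those of the β2 integrins of leukocytes (Itgal, Itgam, Itgax and Itgb2), those that bind matrix or vascular ligands (Itga4, Itga5, Itga6 and Itgav, with Itgb1) and Itgb7, which pairs with Itga4. Itgav pairs with several other β subunits as well as Itgb1. The 10 subunits were chosen by gene symbol from 22886 genes in all. The rule uses no values, but earlier results of these data were known. All 10 were found, each on 1 line of both files, and all 10 passed the filter on low values, their averages being 10 RPKM or more, with none listed at 0.

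The data are 2 RNA sequencing libraries of sorted cells, labelled aerobic tumor cells, of LLC (Lewis lung carcinoma, a transplantable mouse lung tumor) grown under the skin of wild type C57BL/6 mice. The vehicle library came from mice with Veh injection and the clodronate library from mice with Clod injection. The labels do not spell out these short forms, which are read here as vehicle and clodronate. Clodronate is a drug that kills phagocytes once they take it up. The labels give no age of the mice, dose, sort markers or number of mice, and there was 1 library per condition, so that differences have no replicate check and no test was made. A growth protocol in the labels names EML cells, a blood progenitor line, which conflicts with the tissue.

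The values are RPKM, read counts scaled to transcript length and to library size, so levels of different genes can be set side by side. Low values fell on steps, as whole reads give, and the size of a step implied about 13100000 reads for the vehicle library and 10700000 reads for the clodronate library. On that estimate the members rested on between 309 reads (Itgb7, clodronate library) and 25423 reads (Itgam, clodronate library), and the counting error (1 SD) of a level was at most 5.69%. This covers counting alone, and leaves out how far mice, sorts and preparations vary.

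The labelled cells were compared with marker genes. All 10 macrophage markers were above 10 RPKM in both libraries and summed to 21306.5 RPKM in the vehicle library and 20816.4 RPKM in the clodronate library. Of these markers 7 were higher and 3 lower in the clodronate library, and the lower sum rests on C1qc (3984 and 2043 RPKM), without which the sums were 17322 and 18774 RPKM. Of 6 epithelial markers 4, Epcam among them, were listed at 0 in both. The other 2 were kept, Krt8 with 3.67 and 1.33 RPKM and Krt18 with 2.97 and 3.19 RPKM. The labels name tumor cells and do not name macrophages, and the share of macrophages or tumor cells was not measured. In such bulk libraries fewer cells of a type and less RNA per cell cannot be told apart.

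Itgb2 and Itgam, both subunits of leukocyte integrins, were the most abundant members. Itgb2, the β subunit shared by LFA-1, Mac-1 and CD11c integrin (CD18), had 402.7 RPKM in the vehicle library and 464.4 RPKM in the clodronate library, ranks 228 and 212 of the 10982 genes kept. Itgam, the CD11b chain of Mac-1, the complement receptor of myeloid cells, had 385 and 510 RPKM, ranks 239 and 190. These were the highest 2 members in both libraries, with Itgb2 first in the vehicle library and Itgam first in the clodronate library. Of the summed RPKM of the members, Itgb2 was 34.1% and 35.1%, Itgam 32.6% and 38.6%, and Itgb1 14.8% and 9.07%.

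The other α partners of Itgb2 were far lower. Itgax, the CD11c chain found on dendritic cells and many tissue macrophages, had 21.2 RPKM in the vehicle library and 19.6 RPKM in the clodronate library. Itgal, the CD11a chain of LFA-1, which binds ICAM proteins and serves lymphocyte and monocyte contacts, had 20.6 and 9.94 RPKM. Itgam was thus 18.2 times Itgax in the vehicle and 26.0 times in the clodronate library, and 18.7 and 51.3 times Itgal. Itgal and Itgax lay within their counting error of each other in the vehicle library, and Itgax was the higher in the clodronate library.

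The 3 genes lie on chromosome 7 in the deposited coordinates (mouse build mm9). Itgal spans chr7:134439774-134478651, Itgam spans chr7:135206154-135262005 and Itgax spans chr7:135273082-135294171. The end of Itgam and the start of Itgax are 11.1 kb apart, and Itgad, a further CD11 gene 23.3 kb beyond Itgax, was listed at 0 in both libraries. For the neighbours Itgam and Itgax the 250 bases upstream of the annotated starts are shown. They are from RefSeq on build GRCm38.p6, plus strand, at chr7:128062390-128062639 and chr7:128129300-128129549. Capitals mark GAGGAA or its reverse complement TTCCTC, 1 form of the purine-rich sequence bound by PU.1, a transcription factor of macrophages.
Itgam: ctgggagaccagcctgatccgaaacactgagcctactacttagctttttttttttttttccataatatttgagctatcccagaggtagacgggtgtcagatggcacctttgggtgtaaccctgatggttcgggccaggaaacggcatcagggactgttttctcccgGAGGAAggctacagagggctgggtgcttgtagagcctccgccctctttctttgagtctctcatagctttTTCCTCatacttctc
Itgax: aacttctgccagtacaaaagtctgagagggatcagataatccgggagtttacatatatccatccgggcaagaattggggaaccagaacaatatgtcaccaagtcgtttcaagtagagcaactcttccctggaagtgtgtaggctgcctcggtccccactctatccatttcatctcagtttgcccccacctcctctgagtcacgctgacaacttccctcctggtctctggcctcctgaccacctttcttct
The Itgam window held 1 match on each strand, starting 84 and 15 bases before the gene start, and the Itgax window held 0. Of 32851 RefSeq windows of the same length, 23.3% held at least 1 match and 3.54% at least 2. Windows were found for 7 of the 10 members, and 4 of the 7 held a match, 2 in Itgav and 1 each in Itga5 and Itgb1. A match describes letters in the window and not a binding site. Only these exact letters were searched for, and other forms of the PU.1 sequence were not counted. Any link between matches and level was not tested.

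Of the matrix-binding group, Itgb1 was the most abundant. Itgb1, the CD29 chain that pairs with most matrix-binding α subunits, had 175 RPKM in the vehicle library and 120.04 RPKM in the clodronate library, at chr8:131209554-131257479 on mm9. Itga5, the α chain of the fibronectin receptor, had 75.4 and 96.1 RPKM. Itgav, the αV chain that binds RGD ligands such as vitronectin and osteopontin, had 32.0 and 32.5 RPKM. Itga5 was the highest α subunit after Itgam in both libraries.

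Itga4 was above Itga6 in the vehicle library, and the levels were alike in the clodronate library. Itga4, the CD49d chain of VLA-4, which binds VCAM-1 and fibronectin, had 39.4 RPKM in the vehicle library and 29.6 RPKM in the clodronate library. Its locus (chr2:79095583-79269145) overlaps that of Cerkl, which had 7.37 and 0.80 RPKM. The counting rule for shared reads and the strand are not given, so the split between the genes is uncertain. Itga6, the laminin-binding CD49f chain, had 17.6 and 30.1 RPKM, and its distance from Itga4 in the clodronate library was inside the counting error. Itgb7, the partner of Itga4 in the receptor for MAdCAM-1, was the lowest member of the vehicle library with 12.4 RPKM and had 10.8 RPKM in the clodronate library, where Itgal was lowest. On mm9, Itga6 spans chr2:71625140-71694815 and Itgav spans chr2:83564554-83647073, on the same chromosome as Itga4. Itga5 and Itgb7 are both on chromosome 15, at chr15:103174718-103197179 and chr15:102046426-102062366, and Itgb2 is at chr10:76993093-77028419.

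**Figure D1:**
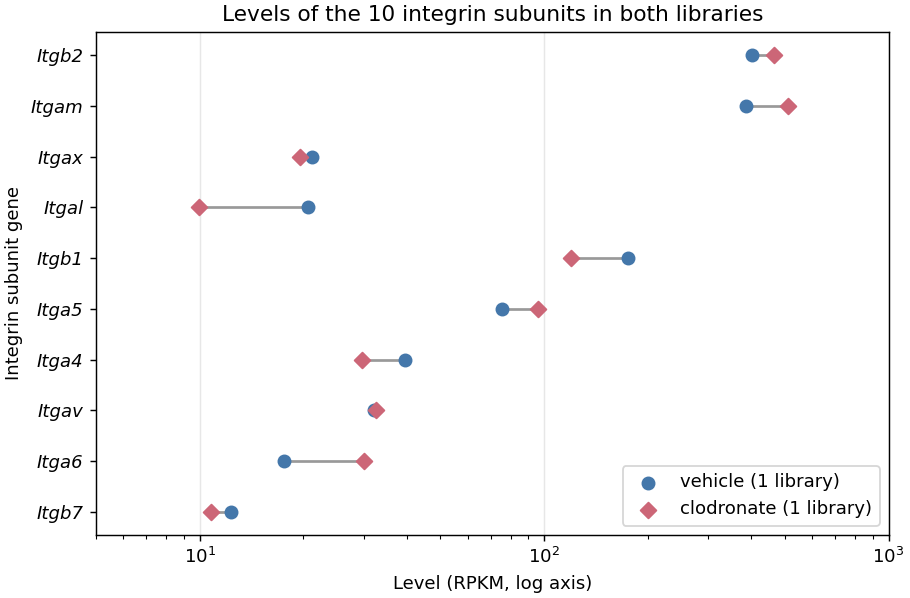
Level of each integrin subunit in RPKM on a log axis, with a circle for the vehicle library and a diamond for the clodronate library (1 library each, so no error bars). Itgb2 and Itgam lie apart from the rest, and the widest gaps between the symbols are those of Itgal (20.6 and 9.94 RPKM) and Itga6 (17.6 and 30.1 RPKM).

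The question of the design is how the clodronate library differs from the vehicle library. The difference is given as the log2 ratio of clodronate RPKM + 1 over vehicle RPKM + 1, a scale that understates the difference of lower genes, strongly so for genes of a few RPKM. In the clodronate library 5 of the 10 members were higher and 5 lower. Their median log2 ratio was -0.043, and that of all 10982 genes kept was 0.019. Of the members 0 were at least 3-fold higher, where 2.86% of all genes kept were, and 0 were at least 3-fold lower, where 2.32% were. At 2-fold on this scale the count was 0 in each direction as well, against 6.95% higher and 6.77% lower of all genes kept. With 10 genes, counts of 0 are near that background and are no result about the members.

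Itgal had the lowest ratio of the members, with a log2 ratio of -0.98. In plain RPKM the vehicle level was 2.08 times the clodronate level, and of the 5913 genes that averaged 10 RPKM or more 3.75% had a lower ratio. The estimated reads were 1403 in the vehicle library and 553 in the clodronate library. Itgal lay just short of 2-fold with a pseudocount of 1 and past it in 4 of the 7 other settings, which ran from -0.98 to -1.11.

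Itga6 had the highest ratio, with a log2 ratio of 0.74, or 1.71 times the vehicle level in plain RPKM, from an estimated 990.2 reads in the vehicle and 1385 reads in the clodronate library. Of the same genes, 7.36% had a higher ratio. Itgb1 followed in size, with a log2 ratio of -0.54, and 13.0% of those genes had a lower one. Only Itgal and Itga6 were past 1.5-fold.

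The remaining members differed less. Log2 ratios were 0.40 for Itgam, 0.35 for Itga5 and 0.21 for Itgb2, and -0.40 for Itga4. The 4 members within 0.25 of 0 were Itgb2, Itgav (0.022), Itgax (-0.11) and Itgb7 (-0.18). The median absolute log2 ratio was 0.37 for the members and 0.32 for all genes that averaged 10 RPKM or more. The median log2 ratio of all genes was -0.24 in the bin of lowest GC content and 0.29 in the bin of highest. Itga5, whose transcript is 57.5% GC, had a log2 ratio of 0.077 once GC content and length were corrected for, whereas Itgb7, with 58.0% GC, had -0.46. Itgav had a ratio of the other sign, -0.038, when the libraries were scaled to the same upper quartile.

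**Figure D2:**
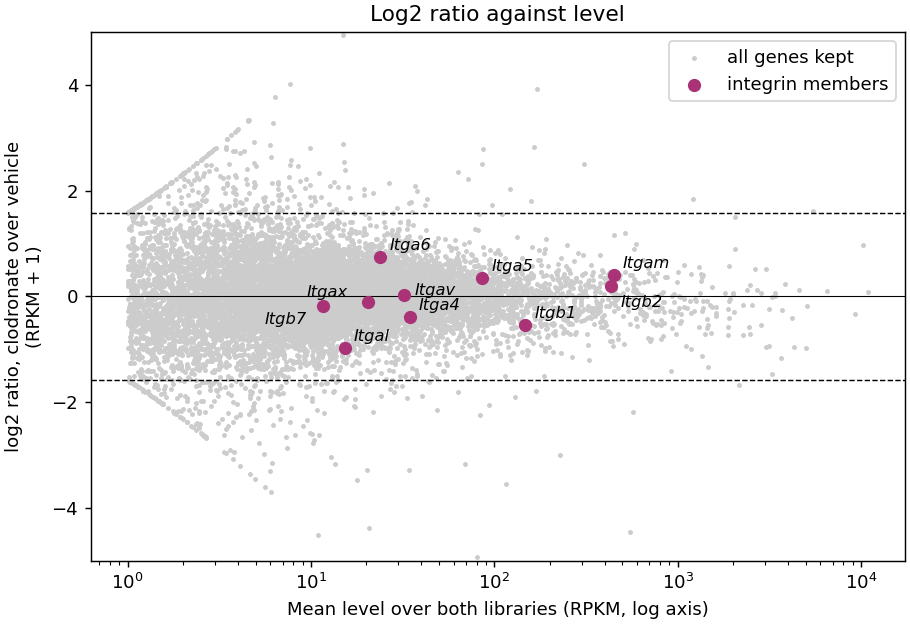
Log2 ratio of clodronate over vehicle (RPKM + 1) against the mean level over both libraries in RPKM on a log axis, with grey points for the genes kept and large points for the members. Dashed lines mark 3-fold, 46 genes lie beyond the plotted range, and all 10 members lie between the lines, from -0.98 (Itgal) to 0.74 (Itga6).

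Because integrins work as pairs, the α subunits were set against their β subunit within each library. Itgal, Itgam and Itgax summed to 426.8 RPKM in the vehicle library and 539.6 RPKM in the clodronate library, 1.06 and 1.16 times Itgb2. Itgam was 90.2% of that α sum in the vehicle library and 94.5% in the clodronate library, and Itgal was 4.83% and 1.84%. Itgam, and so the α chain of Mac-1, led this set in both libraries.

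The β1 set was less even between the libraries. Itga4, Itga5, Itga6 and Itgav summed to 164.4 RPKM in the vehicle library, 0.937 times Itgb1, and to 188 RPKM in the clodronate library, 1.57 times Itgb1. Without Itgav, which also pairs elsewhere, the sums were 0.755 and 1.30 times Itgb1, an alternative chosen after the values were seen. Itga5 alone was 0.43 and 0.80 times Itgb1. Adding Itga9, a further partner of Itgb1 and no member, gave 1.01 and 1.71 times. The ratio of Itgb2 to Itgb1 was 2.30 in the vehicle and 3.87 in the clodronate library. Itga4, which is shared by Itgb1 and Itgb7, was 3.19 and 2.75 times Itgb7. These are ratios of RNA levels and say nothing of how many receptors stood on the surface. They were not corrected for GC content and length. For single genes that correction moved the log2 ratio of Itga5 from 0.35 to 0.077 and that of Itgb1 from -0.54 to -0.49.

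**Figure D3:**
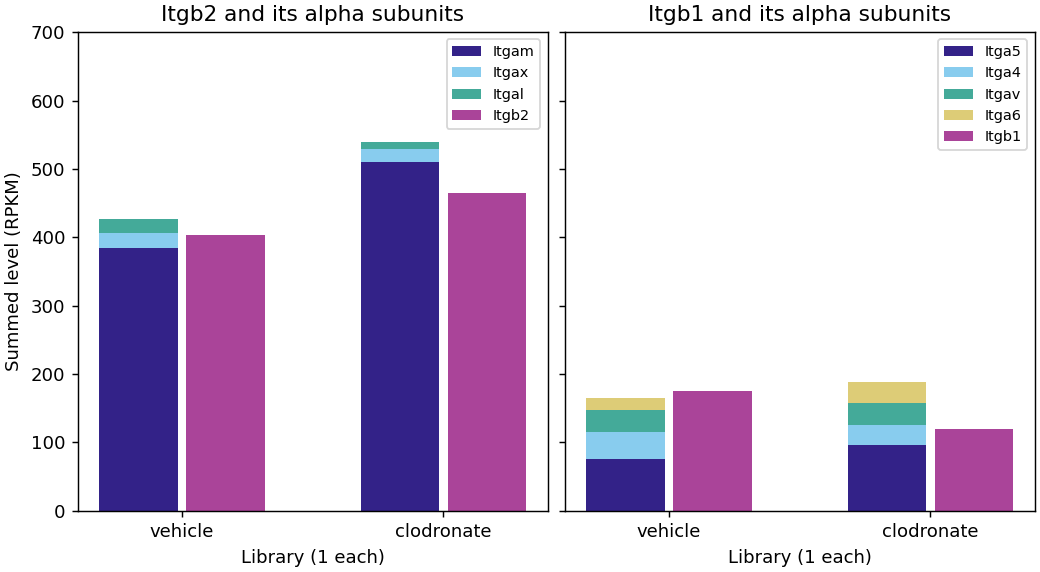
Summed RPKM of the α subunits (stacked bars) beside the RPKM of their β subunit (single bars) in each library, for Itgb2 on the left and Itgb1 (Itgav included) on the right. The α sum and Itgb2 are close in both libraries (1.06 and 1.16), while the α sum is 0.937 times Itgb1 in the vehicle library and 1.57 times in the clodronate library.

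Of the other 16 integrin subunits, 3 passed the filter on low values. Itgb5, which pairs with Itgav, had 99.4 RPKM in the vehicle library and 99.97 RPKM in the clodronate library, and Itgav stood at 0.322 and 0.325 times Itgb5. Itga9 had 12.0 and 16.4 RPKM, and Itgb3, the β chain of the vitronectin receptor and of the platelet fibrinogen receptor, had 0.820 and 1.43 RPKM. None of the 3 was past 2-fold in either direction, and their median log2 ratio was 0.42. The other 13 were at most 1.05 RPKM in either library. They include Itga2b, the platelet subunit, listed at 0 in the vehicle library and at 0.247 RPKM in the clodronate library, and Itgae, the αE partner of Itgb7 on intraepithelial lymphocytes, with 0.482 and 0.269 RPKM. The 10 members made up 91.2% of the summed RPKM of all 26 subunits in the vehicle library and 91.6% in the clodronate library.

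Ligands of these receptors were present in the same RNA. Of 30 ligand genes 17 passed the filter, with a median log2 ratio of -0.27. On the RPKM + 1 scale 0 of the 17 were past 2-fold in either direction, against 6.95% higher and 6.77% lower of all genes kept. A count of 0 among 17 genes is near that background. In plain RPKM 1 was past 2-fold, Thy1, with 2.32 and 1.04 RPKM, and no share of all genes was taken on that scale. Fn1, fibronectin, bound by Itga5 with Itgb1, had 1530 RPKM in the vehicle library and 2269 RPKM in the clodronate library. Spp1, osteopontin, bound by Itgav receptors, had 406 and 755 RPKM, the highest ratio of the list (log2 ratio 0.89). Thbs1, thrombospondin 1, had 413 and 343 RPKM, and Tgfb1, whose latent form is bound by Itgav receptors, had 112 and 167 RPKM.

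Ligands on cell surfaces, and complement, were lower than these. Icam1, the ligand of Itgal and Itgam with Itgb2, had 87.5 RPKM in the vehicle library and 69.6 RPKM in the clodronate library, and C3, whose fragment iC3b is bound by Itgam, had 72.9 and 51.6 RPKM. Vcam1, the ligand of Itga4 with Itgb1, had 8.20 and 9.93 RPKM. Madcam1, the ligand of Itga4 with Itgb7, and Vtn, vitronectin, were listed at 0 in both, as were the 3 fibrinogen chains Fga, Fgb and Fgg. Of the laminin chains, bound by Itga6, Lamc1 had 13.3 and 15.8 RPKM and Lamb1 had 4.18 and 2.71 RPKM. Lama5 had 1.32 and 1.38 RPKM, Lama2 and Lama4 were lower still, and Lama1 was listed at 0 in both. Nid1, nidogen 1, a binder of laminin, had 15.2 and 8.76 RPKM, the lowest ratio of the list on the RPKM + 1 scale (log2 ratio -0.73). In plain RPKM Thy1 was lower.

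Integrins are switched on from inside the cell, when talin and a kindlin bind the β tail under control of the small GTPase Rap1. Of 49 genes of this machinery and of other partners of integrins, 45 passed the filter. In the clodronate library 24 were higher and 21 lower, and the median log2 ratio was 0.099. At 3-fold 1 was higher and 0 lower, and at 2-fold 1 was higher and 1 lower, on the RPKM + 1 scale. Of all genes kept, 2.86% were higher and 2.32% lower at 3-fold, and 6.95% and 6.77% at 2-fold, and the counts among the partners were no larger a share. The gene past 3-fold was Itgb3bp, whose product binds the tail of Itgb3 and is also a kinetochore protein, with 2.91 RPKM in the clodronate library and a listing at 0 in the vehicle library, so that no fold is given.

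Tln1, talin 1, had 77.5 RPKM in the vehicle library and 136 RPKM in the clodronate library (log2 ratio 0.80). Fermt3, kindlin 3, the kindlin of blood cells, had 58.7 and 95.9 RPKM (0.70), whereas Fermt2, the kindlin of most other cells, had 1.72 and 1.14 RPKM and Fermt1, that of epithelia, was listed at 0 in both. Rap1a was the gene past 2-fold lower on the RPKM + 1 scale, with 205 and 99.5 RPKM (log2 ratio -1.04), while Rap1b, the closely related GTPase, had 240 and 275 RPKM. Apbb1ip, the RIAM adaptor that links Rap1 to talin, had 61.0 and 71.1 RPKM.

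Kinases and adaptors act below the β tail. Lyn had 123 and 131 RPKM, Fgr 144 and 113 RPKM and Syk 75.9 and 82.9 RPKM. These kinases carry signals of β2 integrins in myeloid cells. Ptk2b, the focal adhesion kinase relative of myeloid cells, had 44.3 and 43.3 RPKM, and Ptk2, focal adhesion kinase itself, had 4.73 and 8.09 RPKM. Ilk had 132 and 124 RPKM. Of its parvin partners, Parvb had 42.0 and 49.6 RPKM, Parvg 13.6 and 12.3 RPKM and Parva 2.70 and 0.879 RPKM. In plain RPKM Parva was 3.07 times as high in the vehicle library, Bcar1, an adaptor of focal adhesions, 2.41 times (1.62 and 0.671 RPKM) and Rap1a 2.07 times. Parva and Bcar1 were low in both libraries, and no share of all genes was taken on that scale. Of surface partners, Plaur, the urokinase receptor that associates with Itgam, had 333 and 283 RPKM and Cd47 had 92.5 and 67.0 RPKM.

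**Figure D4:**
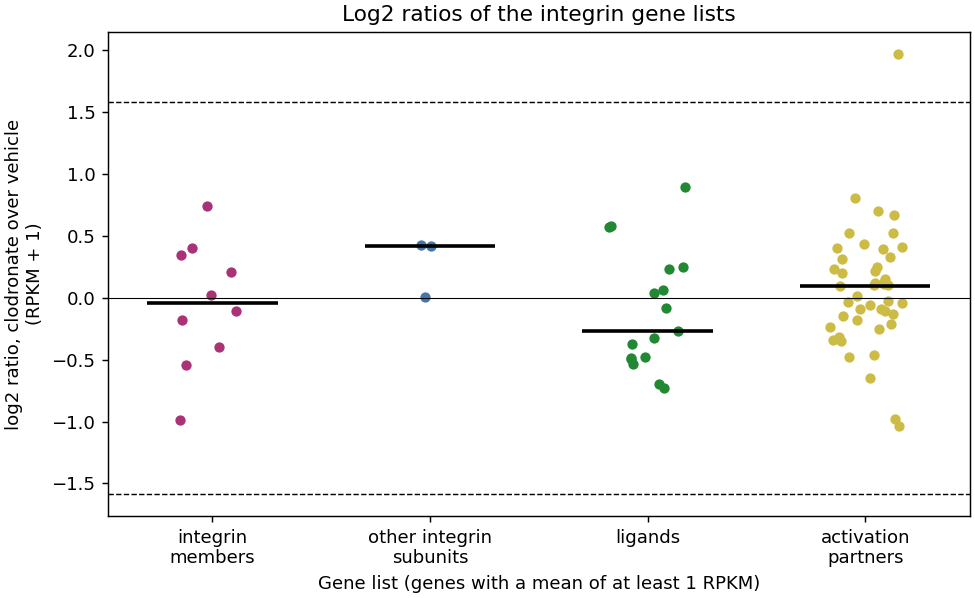
Log2 ratio of clodronate over vehicle (RPKM + 1) for each gene kept in 4 lists, spread sideways for sight, with a bar at the list median and dashed lines at 3-fold. The medians are -0.043 for the members, 0.42 for the other subunits (3 genes), -0.27 for the ligands and 0.099 for the activation partners, and 1 gene, Itgb3bp, lies beyond 3-fold.

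Markers of other cells that use these integrins were read beside the results. Fibroblast markers, of which 6 of 6 were kept, summed to 154 RPKM in the vehicle library and 75.1 RPKM in the clodronate library. In that list 5 markers were lower, from Dcn (77.3 and 28.4 RPKM) to Col1a2, which was nearly level (2.01 and 1.94 RPKM), and Col1a1 was higher (2.32 and 5.40 RPKM). Itgb1 was lower as well, whereas Itga5 was higher and Itgav was nearly level. Endothelial markers, of which 2 of 6 were kept and Tek and Emcn were listed at 0 in both, summed to 2.37 and 7.81 RPKM. Itga6 and Itga5 were higher as well, whereas Itgb1 was lower and Itgav was nearly level. Platelet markers had no single direction: Ppbp had 21.3 and 40.4 RPKM, Gp1ba had 1.90 and 0.387 RPKM, Gp9 and Gp6 were listed at 0 in both, and the sums of 23.3 and 41.9 RPKM were 2.05 and 1.54 RPKM without Ppbp.

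T and NK cell markers, of which 1 of 9 was kept, summed to 11.4 RPKM in the vehicle library and 9.76 RPKM in the clodronate library, 10.3 and 7.72 RPKM of it Cd4, with Cd3e, Cd3g and Ncr1 listed at 0 in both, beside the lower Itgal. Without Cd4 the sums were 1.15 and 2.05 RPKM, and Nkg7 and Klrb1c, listed at 0 in the vehicle library, had 1.02 and 0.918 RPKM in the clodronate library. Neutrophil markers, with 5 of the 8 found listed at 0 in both, S100a9 among them, summed to 43.1 and 45.1 RPKM. The 3 kept had no single direction: S100a8 had 12.7 and 23.1 RPKM, Csf3r 26.4 and 19.3 RPKM and Cxcr2 4.06 and 2.69 RPKM. Dendritic cell markers, of which 3 of 6 were kept, summed to 6.73 and 13.0 RPKM, beside an Itgax of log2 ratio -0.11. The higher sum rests on Cd209a (1.25 and 8.68 RPKM), without which the sums were 5.49 and 4.36 RPKM, with Ccr7 at 3.36 and 2.31 RPKM and Flt3 listed at 0 in the vehicle library. The part of any of these cells in the integrin values was not tested.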

How the data were processed

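The authors deposited RPKM values, 1 per locus and library, for 23170 gene loci, with RefSeq accessions and coordinates. The submitters' processing notes name the build mm9, CASAVA 1.8.2, TopHat2 2.0.9, Bowtie 0.12.9, Cufflinks 2.2.1 and Cuffdiff. Annotation release and strand are not given in the sources used here. Deposited starts count from 0 and are given from 1. RPKM of lines with the same symbol were summed. Genes averaging 1 RPKM or more (10982) were kept, a pseudocount of 1 was added, and at least 3-fold counted as called. Read totals were estimated from the steps of low RPKM times transcript length (GENCODE M21, transcripts of at least 3 kb). Of these values, 84.2% (vehicle, 183 loci) and 81.8% (clodronate, 314 loci) lay within 0.15 of a whole number of steps. The step was chosen to fit these same values, so the share is no separate check of the read totals. Alternatives were another pseudocount, filter, scaling, handling of repeated symbols, GC content and length correction, and threshold. The members and lists were chosen with earlier results of these data known. The text names all members and any gene of the lists. Adgre1 and Rack1 were found under older symbols, and Ly6g was not found. The code for fold calls and steps was run on simulated data, which checks the code alone and not these libraries. Python 3.11.15, numpy 2.4.6 and pandas 2.3.3 were used. Some genes of the lists are not reported here.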

Additional observations from a re-analysis of the deposited data

How the results depend on the processing

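No paired analysis was possible because vehicle and clodronate had 1 library each. Among the members, 0 were past 3-fold in either direction under every alternative run, and 9 of 10 kept the sign of their ratio under the 7 alternatives that give a ratio, Itgav being the exception. All 10 members pass either filter and stand on 1 line each, so the filters and the highest line of a symbol cannot alter their values. For all genes kept, 532 were at least 3-fold higher and 480 lower with a pseudocount of 0.1, 127 and 101 under a minimum average of 5 RPKM, and 763 and 744 at 2-fold, against 314 and 255. These settings alter by construction how many genes can pass. Of the activation partners, 0 were at least 3-fold higher under a minimum average of 5 RPKM, since Itgb3bp is then left out, and 1 was lower at 2-fold. The median log2 ratio of the other integrin subunits was 0.14 with no filter, 0.22 under a minimum average of 5 RPKM and 0.31 after the GC content and length correction, against 0.42. That of the ligands was 0 with no filter, -0.10 under a minimum average of 5 RPKM and -0.37 after the correction, against -0.27. The filters alter which genes enter a median. With 1 library per condition and depth known only as an estimate, no difference here can be set against the spread between mice. Sums of marker lists without their most abundant or most divergent gene were added after the data were seen.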
